A study of Mus musculus with 14 samples.

Results

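Binding sites of Brg1 were compared between 2 kinds of mouse pro-B cell that carry the same wild-type (wt) EBF1 construct, 1 derived from fetal liver progenitors and 1 transformed by a virus. A site is a ChIP-seq peak, an interval of the genome where DNA that came down with an antibody against Brg1 exceeded its background. Every peak of the autosomes, X and Y was taken from the list of each kind of cell, 29354 from fetal liver cells and 24493 from transformed cells, together 53847 of the 196179 peaks in the 9 lists of the series. A peak was called common when it shared at least 1 bp with a peak of the other list, and particular to its kind of cell otherwise.

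Both groups come from C57BL/6 mice, express EBF1 from the retroviral construct pMys_EBF1_wt_IRES_GFP and are labelled pro-B. The fetal liver group started as EBF1 -/- c-kit+ lymphocyte progenitors, sorted from embryos of 16 to 18 days, which were transduced and grown for 14 to 20 days on OP9 stromal cells with IL7 (5 ng/ml), SCF (10 ng/ml), Flt3 ligand (10 ng/ml) and 4% FCS. The transformed group carries Abelson murine leukemia virus (A-MuLV), whose source is given as fetal liver EBF1 fl/fl, and its endogenous EBF1 was replaced by the construct. It was grown in 10% FCS with no added cytokine or stroma named in the labels. Fixation was with EGS in both, followed by 2% formaldehyde in fetal liver cells and 1% in A-MuLV cells, and both used 2.5 µg of the same Brg1 antibody. Culture, fixation, transformation and the endogenous Ebf1 allele therefore differ together, and their parts cannot be told apart. Each group had 1 library, so no difference was tested and no spread between replicates was measured. Whether the A-MuLV cells are 1 clone, and whether embryos were pooled, is not given in the sources used here.

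Brg1, the product of Smarca4, is a motor subunit of BAF complexes, which use ATP to slide or evict nucleosomes and so make enhancers and promoters accessible to transcription factors. EBF1 is a transcription factor required for B-cell development, which binds a palindromic site at genes such as Cd79a and Igll1. The v-Abl kinase of A-MuLV holds cells at a stage close to the pro-B to pre-B transition and makes their growth independent of IL7.

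Among the 10 promoters with the highest folds of each class, 6 were chosen after their values were seen, to show what sort of sequence lies under such peaks; no sequence of whole peaks was read. The windows below are RefSeq sequences of GRCm38.p6, from 250 bases before a gene's start to 50 after, written 5′ to 3′ on the gene's strand. Capitals mark matches to 14 motifs that were searched on both strands, and positions count from 1 at the first base. The first pair, Igll1 (chr16:16863936-16864235, minus strand) and Cd22 (chr7:30878979-30879278, minus strand), carried a common Brg1 peak and an EBF1 peak. The next pair, F2r (chr13:95618417-95618716, minus strand) and Gfra1 (chr19:58455349-58455648, minus strand), carried a peak of fetal liver cells only. The last pair, Trmt61a (chr12:111677855-111678154, plus strand) and Efhd1 (chr1:87264103-87264402, plus strand), carried a peak of A-MuLV cells only together with an EBF1 peak.
Igll1: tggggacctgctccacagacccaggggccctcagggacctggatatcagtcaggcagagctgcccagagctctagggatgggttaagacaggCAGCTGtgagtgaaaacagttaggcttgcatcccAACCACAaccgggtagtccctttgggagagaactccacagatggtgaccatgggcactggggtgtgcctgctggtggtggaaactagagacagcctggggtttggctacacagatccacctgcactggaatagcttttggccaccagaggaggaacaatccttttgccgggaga
Cd22: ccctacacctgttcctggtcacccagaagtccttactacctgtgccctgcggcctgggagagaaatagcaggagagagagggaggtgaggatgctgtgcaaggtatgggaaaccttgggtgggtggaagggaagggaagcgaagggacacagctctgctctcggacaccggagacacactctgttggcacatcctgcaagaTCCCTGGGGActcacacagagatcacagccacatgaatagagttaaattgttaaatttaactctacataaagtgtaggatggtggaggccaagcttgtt
F2r: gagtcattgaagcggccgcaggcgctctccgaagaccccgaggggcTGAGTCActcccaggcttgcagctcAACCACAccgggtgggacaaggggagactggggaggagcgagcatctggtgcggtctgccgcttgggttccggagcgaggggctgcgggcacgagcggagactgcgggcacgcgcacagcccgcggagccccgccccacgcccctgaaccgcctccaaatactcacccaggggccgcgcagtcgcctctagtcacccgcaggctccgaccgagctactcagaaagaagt
Gfra1: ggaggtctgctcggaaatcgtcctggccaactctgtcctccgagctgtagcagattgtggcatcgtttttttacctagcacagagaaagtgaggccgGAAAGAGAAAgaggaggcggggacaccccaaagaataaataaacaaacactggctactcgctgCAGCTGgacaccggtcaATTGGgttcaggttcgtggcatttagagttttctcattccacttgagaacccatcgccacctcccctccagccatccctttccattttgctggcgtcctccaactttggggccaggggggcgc
Trmt61a: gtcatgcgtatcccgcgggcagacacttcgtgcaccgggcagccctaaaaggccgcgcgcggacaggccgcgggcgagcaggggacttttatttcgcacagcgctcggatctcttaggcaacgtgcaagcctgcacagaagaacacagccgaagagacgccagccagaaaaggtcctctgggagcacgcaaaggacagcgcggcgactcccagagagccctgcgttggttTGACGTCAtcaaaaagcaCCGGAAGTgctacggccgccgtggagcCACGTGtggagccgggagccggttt
Efhd1: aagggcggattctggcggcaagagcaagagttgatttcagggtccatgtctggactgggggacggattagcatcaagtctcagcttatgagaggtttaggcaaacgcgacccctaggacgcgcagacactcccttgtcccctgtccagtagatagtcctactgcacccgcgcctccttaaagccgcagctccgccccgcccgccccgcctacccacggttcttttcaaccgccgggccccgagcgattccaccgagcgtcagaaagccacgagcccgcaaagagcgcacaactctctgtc

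Igll1 encodes a part of the surrogate light chain of the pre-B-cell receptor, and its window held a RUNX match (TGTGGTT or its reverse AACCACA) at position 127 and an E-protein E-box (CAGCTG) at 93. Cd22 encodes an inhibitory coreceptor of B cells, and its window held the EBF palindrome TCCCNNGGGA at position 202. F2r, the gene of a thrombin receptor, held an AP-1 match (TGANTCA) at 47 and a RUNX match at 72. Gfra1, the gene of a receptor for the growth factor GDNF, held an IRF match (GAAANNGAAA) at 98, the E-box at 161 and an NF-Y match (CCAAT) at 178. Trmt61a, the gene of a tRNA methyltransferase subunit, held the CRE (TGACGTCA) at 231, an ETS match (CCGGAAGT) at 249 and the Myc and USF E-box (CACGTG) at 276. Efhd1, the gene of a calcium-binding mitochondrial protein, held none of the 14 motifs. The authors' fold enrichment, a ratio of signal at the peak's summit to the local background, was 27.6 in fetal liver and 36.1 in A-MuLV cells at the Igll1 window and 20.7 and 16.6 at Cd22. It was 18.0 at F2r and 21.7 at Gfra1 in fetal liver cells, and 10.2 at Trmt61a and 9.64 at Efhd1 in A-MuLV cells. The fetal liver value at Igll1 is that of a peak of 11528 bp that also covers Vpreb1, so its summit may lie outside the window. Fold was scaled within each library, so values of the 2 lists stand side by side here and are not compared in size.

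About 1 in 2 fetal liver peaks and about 4 in 5 A-MuLV peaks were common. Of the fetal liver peaks, 14579 (49.7%, exact Clopper-Pearson 95% interval 49.1 to 50.2) overlapped an A-MuLV peak and 14775 did not. Of the A-MuLV peaks, 20042 (81.8%, 81.3 to 82.3) overlapped a fetal liver peak and 4451 did not. These intervals, like all others given for shares below, cover only counting error and describe a pair of libraries, not the kinds of cell. The counts are unequal because fetal liver peaks were broader: 4007 of them each covered 2 or more A-MuLV peaks, up to 9. Median width was 1508 bp for common and 797 bp for particular fetal liver peaks, and 433 bp and 252 bp in A-MuLV cells. At the 14579 overlaps, the summits of the 2 libraries lay a median of 98 bp apart, and 71.3% lay within 200 bp.

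The lists end at different thresholds. The lowest −log10 q, the authors' significance value, was 10.0 in the fetal liver list and 1.37 in the A-MuLV list, and only 7177 of the 24493 A-MuLV peaks reached 10. With both lists held to 10, 21.2% of fetal liver peaks and 91.8% of A-MuLV peaks were common. Over the full lists, with summits required within 200 bp, the shares were 38.3% and 46.1%. Sequencing depth is unknown from these files, and Brg1 may be present where no peak was called.

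Common sites were the stronger sites in both libraries. Median fold was 8.19 at common and 6.37 at particular fetal liver peaks, and 5.67 and 4.72 in A-MuLV cells. When fetal liver peaks were ranked by fold and cut into 10 equal groups, 38.1% of the lowest group, 27.7% of the next and 74.2% of the highest were common. In the A-MuLV list the share was 71.0% in the lowest group, 93.3% in the ninth and 91.6% in the highest. The order of strength was only loosely shared: over the 14579 overlaps, Spearman's rho between the 2 folds was 0.289, a description across sites of 2 libraries.

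**Figure D1:**
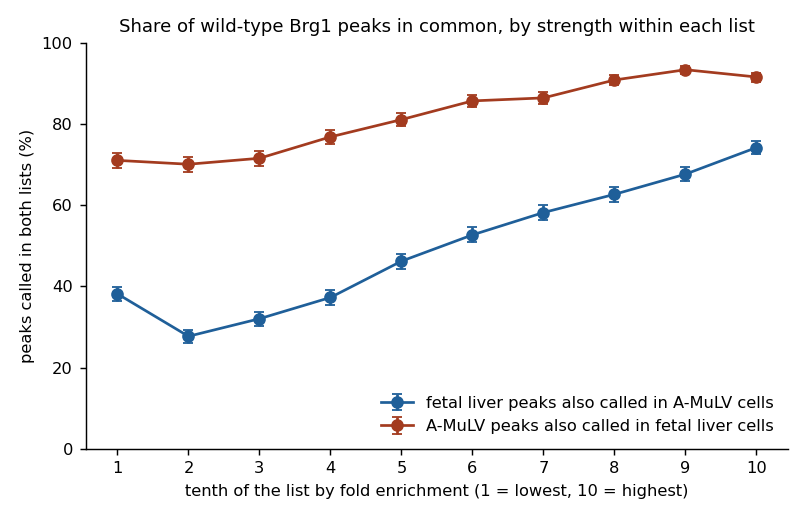
Share of wild-type Brg1 peaks called in both kinds of cell (%), in 10 equal steps of fold enrichment within each list, for fetal liver peaks (blue) and A-MuLV peaks (red). Bars are exact 95% binomial intervals. The fetal liver share goes from 27.7% in the second step to 74.2% in the highest, and the A-MuLV share is 70.1% or more in every step.

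The 10 neighbourhoods at the head of the common class, ranked by the worse of their ranks in the 2 lists, include the interval of Vpreb1 and Igll1. Each is named by its nearest protein-coding gene, which can be far away. The second was Vpreb1, which encodes the other part of the surrogate light chain, with a fold of 27.6 in fetal liver cells in an interval of 11528 bp that also covers Igll1. The highest A-MuLV peak in that interval, with 36.1, lay at the Igll1 promoter, and the one at the Vpreb1 promoter had 10.8. Another lay 27479 bp from Lyn, the gene of a Src-family kinase of B cells, with 27.5 and 21.2. The first lay 46592 bp from Myl10, a myosin light chain gene, with 28.0 and 49.3. The others were near Stoml1, Dnah1, Tmem64, Crisp1, 1700018B08Rik, Chst3 and Chsy1. EBF1 wt itself was called at 8 of these 10 in A-MuLV cells, all but those near Stoml1 and Lyn, and Brg1 was called at 4 of them in fetal liver cells given the empty vector, which lack EBF1 and are labelled as blocked before the pro-B stage.

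The 10 highest fetal-liver-only neighbourhoods had no EBF1 wt peak at 9 sites. Those named here lay in or near Gpc5 (fold 34.7), which encodes a cell-surface glypican, Nucb2 (34.0), Rnf180 (31.5), Rnd3 (29.8), 1700056E22Rik (28.6), Zfp423 (27.6), 1700008O03Rik (26.6), Irs2 (26.3) and Cradd (26.3). The sites named for Gpc5, Nucb2, Rnd3 and Irs2 lay 144814, 79235, 287798 and 152509 bp away from those genes. The site nearest Gpc5 overlapped a promoter window, though it lay far outside Gpc5. Zfp423 encodes a zinc-finger protein known to bind EBF1, and Irs2 an adaptor of insulin and cytokine receptors. Brg1 was called at all 10 in fetal liver cells with the altered EBF1 constructs labelled dC, dPLD and F-GATA3, of which the first pair is labelled as partly blocked before the pro-B stage, and at 8 of the 10 with empty vector. Of the 10, 4 were called in the A-MuLV library with dC, among them those near Rnf180, 1700056E22Rik and Irs2. The 1 site with an EBF1 peak in A-MuLV wt cells was that within Rnf180, whose EBF1 fold was 6.27 with wt and 36.4 with dC.

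The 10 highest A-MuLV-only neighbourhoods were EBF1 sites without exception. They lay in or near Srd5a2 (fold 48.6), Cdk17 (45.3), Exoc6 (43.5), Jak2 (41.2), Vps8 (35.9), Ssh1 (33.6), Megf6 (32.4), Tafa2 (29.5), Tm2d1 (28.7) and Fbrsl1 (28.5). Jak2 encodes a kinase of cytokine receptors, and its peak lay inside the gene at chr19:29302140-29302621. All 10 overlapped an EBF1 peak with wt and with dC EBF1, with folds of 14.6 to 86.5 for wt. Brg1 was called at 7 of the 10 in A-MuLV cells with dC and at 1, that in Tafa2, in another fetal liver list (F-GATA3). None was at a promoter window. EBF1 libraries were fixed with 1% formaldehyde alone, and EBF1 in fetal liver cells was not analysed here.

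Strength and EBF1 went together in both classes of A-MuLV peaks and among common fetal liver peaks. An EBF1 wt peak overlapped 20.8% (19.6 to 22.0) of A-MuLV-only peaks and 17.4% (16.8 to 17.9) of common A-MuLV peaks. The order of these 2 shares depends on how overlap is scored: it was 11.1% against 21.5% when summits had to lie within 200 bp. Among A-MuLV-only peaks the share was 6.50% in the lowest of 10 equal groups by fold and 73.0% in the highest, and 96 of the 100 strongest overlapped EBF1. Common A-MuLV peaks went from 7.08% to 55.2%, and 97 of their 100 strongest overlapped EBF1. In the fetal liver list, EBF1 was called at 23.4% (22.7 to 24.1) of common and 3.45% (3.16 to 3.75) of particular peaks. Among common fetal liver peaks the share went from 13.8% in the lowest group to 45.6% in the highest. Of their 100 strongest, 54 overlapped EBF1. Among fetal-liver-only peaks it went from 2.50% to 5.07%. Of the 6155 EBF1 wt sites, 56.8% (55.6 to 58.1) had Brg1 in both kinds of cell, 15.1% in A-MuLV cells only, 10.1% in fetal liver cells only and 18.0% in neither. Median EBF1 fold was 10.4, 9.61, 7.84 and 7.32 at these 4 kinds of site.

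**Figure D2:**
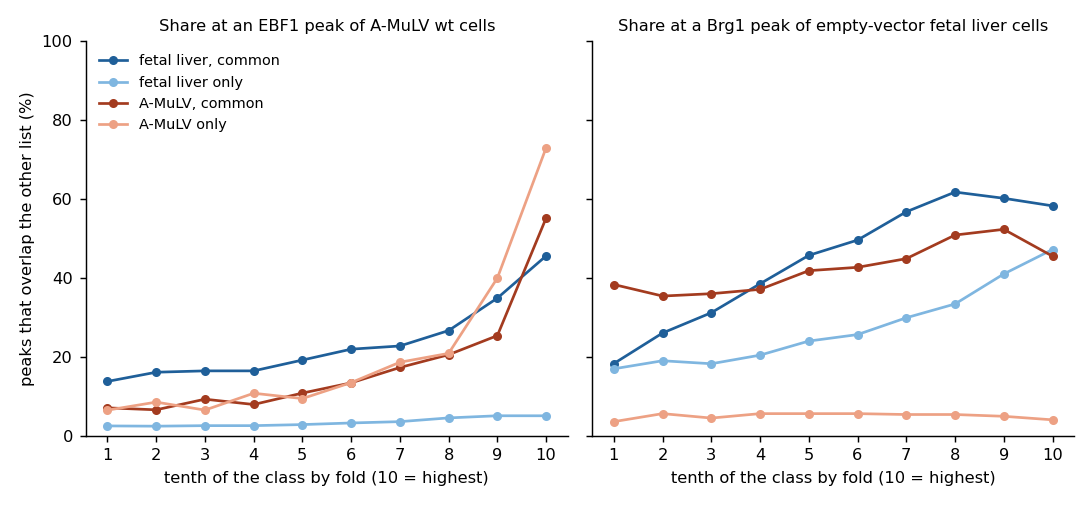
Share of peaks (%) that overlap an EBF1 wt peak of A-MuLV cells (left) or a Brg1 peak of empty-vector fetal liver cells (right), in 10 equal steps of fold within each of the 4 classes. At left the A-MuLV-only class reaches 73.0% and the fetal-liver-only class 5.07% in the highest step. At right the fetal-liver-only class goes from 17.0% to 47.2%, while the A-MuLV-only class stays at 5.62% or lower.

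Sites of the empty-vector library were found mainly among fetal liver peaks and common peaks. Brg1 with empty vector, in cells without EBF1, was called at 44.7% (43.9 to 45.5) of common and 27.6% (26.9 to 28.3) of particular fetal liver peaks, and at 42.5% (41.8 to 43.2) of common and 5.03% (4.41 to 5.72) of A-MuLV-only peaks. Of the 100 strongest peaks, 66 of the common and 64 of the particular fetal liver class were called with empty vector, against 16 of the common and 2 of the particular A-MuLV class, so these counts were low among the strongest A-MuLV peaks of both classes. The fetal liver lists share culture and fixation with each other, and the part of this in their overlap was not tested. Among fetal-liver-only peaks 19.8% were called in all 4 other fetal liver lists and 11.2% in none of them. The 3 A-MuLV lists other than wt Brg1 (Brg1 dC, EBF1 wt and EBF1 dC) held no peak at 73.4% (72.7 to 74.1) of fetal-liver-only peaks and at 11.6% of common ones.

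In the 5 Brg1 libraries other than wt, smaller shares of A-MuLV-only than of common A-MuLV peaks were called. The second A-MuLV Brg1 library, with dC, called 20.8% (19.6 to 22.0) of A-MuLV-only and 71.7% (71.1 to 72.3) of common A-MuLV peaks. It also called 21.0% (20.3 to 21.6) of fetal-liver-only peaks, so these sites had a peak in 1 of the 2 A-MuLV Brg1 lists. Of A-MuLV-only peaks 36.5% were called in at least 1 other fetal liver list and 53.8% (52.4 to 55.3) in none of those 5 libraries, against 1.34% of common A-MuLV peaks. At EBF1 sites within the A-MuLV-only class the dC library called Brg1 at 18.7% of 925 peaks, and away from them at 21.4% of 3526. EBF1 was called with wt and not with dC at 9.55% of A-MuLV-only and 1.84% of common A-MuLV peaks.

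**Figure D3:**
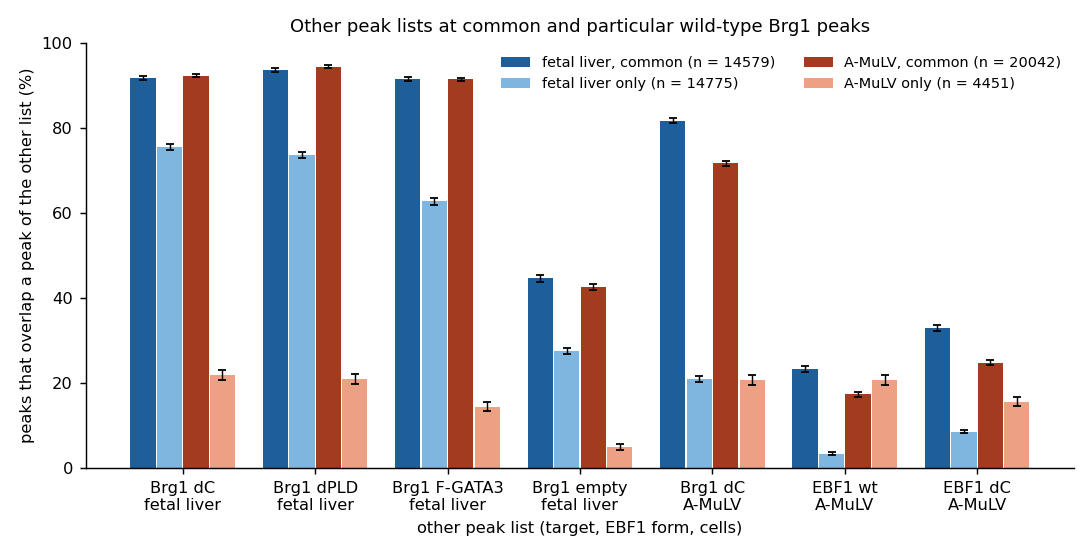
Share of each class of wild-type Brg1 peak (%) that overlaps a peak of 7 other lists, with exact 95% binomial intervals; class sizes are in the legend. The 3 lists with altered EBF1 in fetal liver cells cover 91.4% to 94.4% of both common classes and 14.5% to 22.0% of A-MuLV-only peaks.

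In both libraries a larger share of common than of particular peaks lay at promoters. A promoter window was covered by 42.9% (42.1 to 43.7) of common and 10.5% (9.99 to 11.0) of particular fetal liver peaks, and by 30.5% (29.9 to 31.2) of common and 4.43% (3.84 to 5.07) of particular A-MuLV peaks. Wider peaks touch more windows, but within a band of width the order was the same: among fetal liver peaks of 1000 to 1500 bp the shares were 44.2% and 16.3%, and among A-MuLV peaks of 300 to 500 bp they were 25.8% and 6.49%. With both lists held to a −log10 q of 20 the fetal liver order turned, with 29.7% of common and 32.7% of particular peaks at promoters. Outside genes and promoter windows lay 22.9% of common and 41.7% of particular fetal liver peaks, and 27.2% and 48.1% in A-MuLV cells.

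Promoter windows with a common peak held more CpG and more ETS and NRF1 motifs than fetal-liver-only windows or all windows. Both motifs are typical of promoters active in many tissues. Of 32851 windows, 9235 carried a common peak, 2077 a fetal liver peak only, 247 an A-MuLV peak only and 21292 none. They held a median of 23, 16, 18 and 4 CpG. The ETS motif stood in 10.3% of common, 4.77% of fetal-liver-only and 8.10% of A-MuLV-only windows, against 3.89% of all windows. NRF1 (GCGCNTGCGC) stood in 12.5%, 5.73% and 8.50%, against 4.60%. CRE stood in 3.52%, 2.55% and 4.45%, against 1.79%. AP-1 and GATA motifs had smaller shares in windows with a peak than over all windows: AP-1 in 3.78%, 5.83% and 4.86% against 7.81%, and the GATA motif, spelled AGATAA, in 4.73%, 8.14% and 7.29% against 11.2%. The Myc and USF E-box stood in 11.1%, 8.57% and 9.31%, against 7.15%. The E-protein E-box stood in 13.5%, 17.7% and 19.03%, against 16.3%, and RUNX in 3.50%, 5.25% and 5.67%, against 5.27%. IRF stood in 2.89%, 4.43% and 2.43%, against 3.44%, and PU.1 (GAGGAAGT) in 3.32%, 4.24% and 3.64%, against 3.20%. The octamer (ATGCAAAT) stood in 1.34%, 1.35% and 0.810%, against 1.74%, STAT (TTCNNNGAA) in 6.53%, 7.94% and 6.88%, against 8.30%, and NF-Y in 37.7%, 36.2% and 43.7%, against 37.4%. For the 247 A-MuLV-only windows the interval was 5.02 to 12.2 for ETS and 5.34 to 12.7 for NRF1. These overlap the intervals of common windows, 9.71 to 11.0 and 11.8 to 13.2. The letters of ETS, NRF1, CRE and the Myc and USF E-box contain CG, and those of AP-1 and GATA do not. Shares were not adjusted for the CpG of the windows, whose median was 7 over all windows. The ETS and PU.1 motifs share the letters GGAAGT, and matches of different motifs were allowed to overlap.

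The EBF palindrome was rare everywhere, in 0.904% of all windows, 0.996% of common, 1.59% of fetal-liver-only and 0.810% of A-MuLV-only windows. Where it met a common Brg1 peak, EBF1 was called in A-MuLV cells at 63 of 92 windows (68.5%, 58.0 to 77.8), against 5.61% of common windows without it. Cd22 is an example of the former. With a fetal-liver-only peak EBF1 was called at 7 of 33 windows that held the palindrome, and with no Brg1 peak at 2 of 170. A letter match is a description of the sequence and not a binding site, and Igll1, with no exact palindrome in its window, had an EBF1 fold of 36.5.

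Genes were then grouped by role, counting peaks in the gene's interval extended by 10 kb on each side. Over all 21883 protein-coding genes, 50.2% had a common peak, 35.4% a fetal-liver-only peak and 12.4% an A-MuLV-only peak. A fetal liver peak with no A-MuLV peak was found for 11.8%, an A-MuLV peak with no fetal liver peak for 1.37%, and no wt Brg1 peak at all for 35.8%. A gene can hold peaks of several classes. A peak within 10 kb of several genes counts once for each of them, so sums over genes, in total or within a list, can repeat a peak. Summed over genes, 32760 fetal liver and 30252 A-MuLV peaks were counted, but 12 of the 17 lists held more A-MuLV than fetal liver peaks, among them the ubiquitously expressed genes (27 fetal liver and 38 A-MuLV peaks) and the immediate early and stress genes (47 and 61). More A-MuLV peaks in a list are therefore not particular to B-cell genes. A broad fetal liver peak can overlap several A-MuLV peaks, and each of those is counted. Particular peaks did not follow the totals: none of the 12 lists held more A-MuLV-only than fetal-liver-only peaks. B-lineage transcription factor genes held 38 fetal-liver-only and 24 A-MuLV-only peaks, and ubiquitously expressed genes 8 and 5. The 17 lists are short, and their counts are read against those shares with no test.

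**Figure D4:**
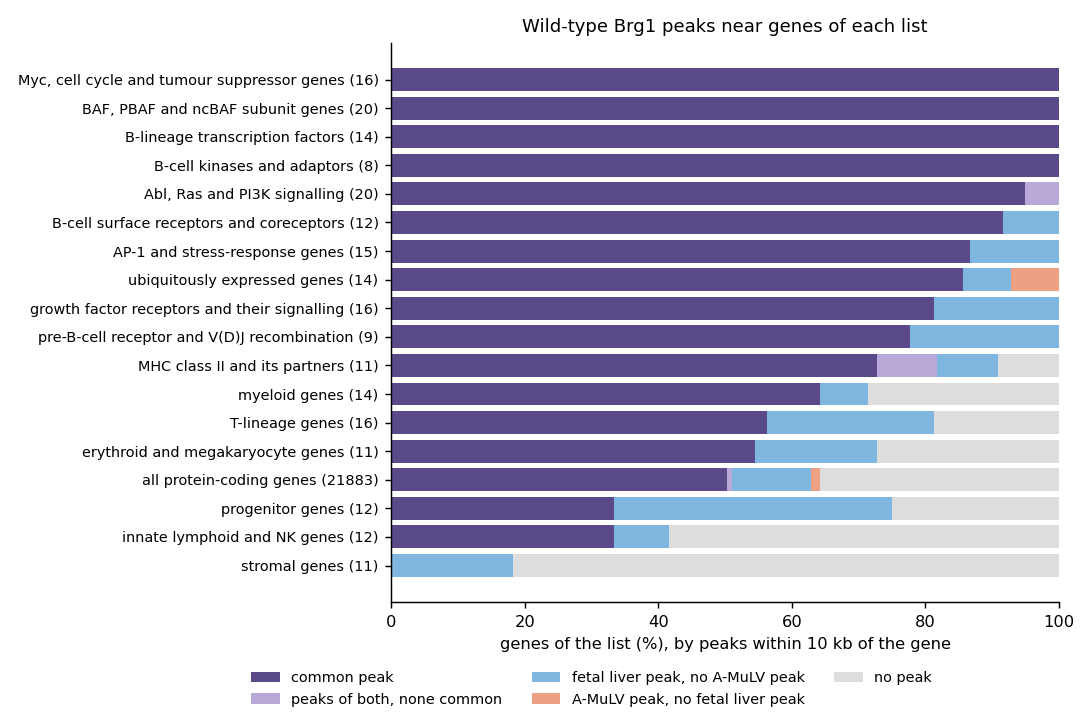
Genes of each list (%, number of members in parentheses) by the wild-type Brg1 peaks within 10 kb. All members of 4 lists have a common peak, 41.7% of progenitor genes have a fetal liver peak and no A-MuLV peak, and the same share is 11.8% over all protein-coding genes.

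B-cell genes carried Brg1 in both kinds of cell. All 14 B-lineage transcription factor genes had a common peak, beside 50.2% of all genes. They held 100 fetal liver and 146 A-MuLV peaks, of which 38 and 24 were particular. The median length of these genes was 84.9 kb, against 17.2 kb over all genes, and longer intervals can take in more peaks. All 20 BAF, PBAF and ncBAF subunit genes and all 16 Myc, cell cycle and tumour suppressor genes had a common peak too. Pou2af1, the gene of a B-cell coactivator of octamer factors, had the highest common peak of the list in fetal liver cells (31.3; 12.4 in A-MuLV cells), at its promoter. Pax5, which encodes the factor that commits cells to the B lineage, had common peaks of up to 24.8 in fetal liver and 16.2 in A-MuLV cells, inside the gene. Ikzf3, the Aiolos gene, had the highest in A-MuLV cells (27.2) and also the highest A-MuLV-only peak of the list (15.1). Pax5 had 10 fetal liver peaks and 13 A-MuLV peaks, and none with empty vector.

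Ebf1 itself had 13 peaks in fetal liver wt cells and 26 in A-MuLV wt cells, among the 10 largest excesses of A-MuLV peaks of any gene. The other fetal liver libraries held 13 (dC), 13 (dPLD), 12 (F-GATA3) and 2 (empty vector) there, and A-MuLV dC held 20. The 4 fetal liver libraries with an EBF1 form thus stood close together and the empty vector low. The highest common peak lay inside the gene, at chr11:44948236-44950952 with a fold of 14.3 in fetal liver and 10.6 in A-MuLV cells. Of the A-MuLV peaks, 10 of the 26 A-MuLV peaks were particular. Both kinds of cell carry a retroviral EBF1 and an altered Ebf1 gene, and the part of reads from the construct in these counts was not tested.

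Genes of the pre-B-cell receptor had Brg1 peaks in both cells, and the recombinase genes had them in fetal liver wt cells alone. Of this list 7 of 9 members had a common peak, beside 50.2% of all genes. The list held 34 fetal liver and 61 A-MuLV peaks, of which 11 and 6 were particular. These sums repeat peaks that Igll1 and Vpreb1, which are close neighbours, share. Vpreb3 had 2 fetal liver and 9 A-MuLV peaks, with top folds of 27.1 and 15.1. Vpreb2 had a common peak at its promoter (19.7 and 20.6). Dntt, the gene of terminal transferase, had a common peak of 25.6 in fetal liver and 6.61 in A-MuLV cells. Rag1 and Rag2, whose proteins cut antibody gene segments, were the 2 members with fetal liver peaks alone. Rag2 had 3 peaks in fetal liver wt cells (top fold 11.4), 3 in each of dC, dPLD and F-GATA3, none with empty vector, none in A-MuLV wt and 1 in A-MuLV dC cells. Rag1 had 1 in each of the 4 fetal liver libraries with an EBF1 form, none with empty vector, none in A-MuLV wt and 2 in A-MuLV dC cells. The recombinase genes therefore lacked a peak in 1 of the 2 A-MuLV Brg1 libraries.

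B-cell kinases, adaptors and surface receptors followed the first pattern. All 8 kinase and adaptor genes had a common peak (42 fetal liver and 45 A-MuLV peaks), beside 50.2% of all genes. Their median length was 65.7 kb, against 17.2 kb over all genes. Among them were Bank1 (31.4 and 20.8), a scaffold gene, and Syk (20.2 and 15.8), the gene of a kinase of B-cell receptor signalling. Blk, the gene of another Src-family kinase, had 4 fetal liver peaks, 3 of them particular with a fold of up to 16.8, and 1 A-MuLV peak. Of 12 surface receptor genes 11 had a common peak, beside the same 50.2%, such as Cd72 (26.9 and 20.1) and Bst1 (27.9 and 14.8), a marker of pro-B cells. The exception was Ms4a1, which encodes CD20, a protein of later B cells: it had 3 peaks in fetal liver wt cells (top fold 16.5), 2 in dPLD and 4 in F-GATA3, and none in dC, empty-vector or any A-MuLV library. Of 11 genes of MHC class II presentation 8 had a common peak, with folds of 18.4 in fetal liver cells at Cd74, the invariant chain gene, and 14.0 at H2-Ob, and Cd83 had no peak.

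The antibody loci held many peaks of both kinds. Igk, the kappa light chain locus (chr6:67555636-70726754), held 141 fetal liver and 195 A-MuLV peaks, of which 100 and 123 were common. Igh, the heavy chain locus (chr12:113258768-116009954), held 111 and 172, of which 74 and 104 were common. Igl held 12 and 15. This made up 0.480% of fetal liver and 0.796% of A-MuLV peaks at Igk, and 0.378% and 0.702% at Igh. With both lists held to a −log10 q of 10 the order of the counts turned. Igk then held 141 of 29354 fetal liver and 51 of 7177 A-MuLV peaks, and Igh held 111 and 38. The order of the shares of each list did not turn. Empty-vector cells had 2 peaks at Igk and 53 at Igh.

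Growth factor receptor genes differed in the direction of their particular peaks. In the list of receptors and their signalling, 13 of 16 had a common peak, beside 50.2% of all genes. Kit, Il2rg and Ccnd2 had fetal liver peaks alone, beside 11.8% of all genes. Kit, the receptor for SCF by which the progenitors were sorted, had 1 fetal liver wt peak at its promoter (10.9), 1 with dC, 2 with dPLD, 2 with F-GATA3, none with empty vector and none in either A-MuLV Brg1 library. Il2rg, the shared chain of the IL7 receptor, had 3 fetal liver peaks (up to 7.10) and Ccnd2, a G1 cyclin gene, also had 3 (up to 6.07). Il2rg lies on the X chromosome, which held fewer A-MuLV peaks per fetal liver peak than any autosome. Flt3 had 6 fetal liver peaks, all common and one with a fold of 26.3, and 7 A-MuLV peaks of up to 5.58, with 6 in empty-vector cells. Il7r had 2 fetal liver peaks and 7 A-MuLV peaks, of which 6 were A-MuLV only (up to 5.29). Its 1 common peak lay at the promoter (11.6 and 8.31). Il7r had no peak in the A-MuLV dC Brg1 library and 2 in each other fetal liver library, so the excess stood in 1 A-MuLV library.

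Downstream of these receptors most genes were shared. Stat5b had 11 peaks in each list, with top common folds of 17.8 and 18.1. Jak1 had 6 fetal liver peaks, 5 of them particular (up to 10.4), and 1 A-MuLV peak. Bcl2, which keeps cells alive, had 6 and 2, and Mcl1, with the same role, 5 and 6. Ccnd3, the D-type cyclin of pre-B cells, had 15 and 28, of which 13 fetal liver peaks were common and 5 A-MuLV peaks particular. The A-MuLV dC library held 36 there and the other fetal liver libraries 8 to 15. Both A-MuLV Brg1 lists have narrower peaks (median 381 bp with wt and 348 bp with dC) than the fetal liver lists (978 to 1325 bp). They also end at a lower −log10 q (1.37 and 1.33, against 10.0). Their higher counts at Ccnd3 cannot be told apart from these traits of the lists. Socs2 and Socs3, feedback inhibitors of cytokine signalling, had 4 and 6 fetal liver and 8 and 11 A-MuLV peaks.

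Genes of Abl, Ras and PI3K signalling, the routes that v-Abl uses, had common peaks in 19 of 20 cases, beside 50.2% of all genes. Lists of other roles were as high, such as the BAF, PBAF and ncBAF subunit genes with 20 of 20. The median length of the Abl, Ras and PI3K genes was 53.1 kb, against 17.2 kb over all genes. They held 78 fetal liver and 90 A-MuLV peaks, of which 31 and 15 were particular. Abl1 had 7 fetal liver peaks, all common (up to 9.28), and 10 A-MuLV peaks of up to 7.18, and the sequence of v-Abl derives from this gene. The exception was Pim2, also a gene of the X chromosome, with 1 peak in each cell that did not overlap. Pim1, a survival kinase gene induced by STAT5, had 3 fetal liver peaks, all common and up to 12.4, and 14 A-MuLV peaks of up to 9.84, of which 5 were particular. The remaining fetal liver libraries held 2 to 5 peaks at Pim1, and the A-MuLV dC library held 15. The 3 fetal liver peaks at Pim1 overlapped 9 of the A-MuLV peaks between them. Pik3r1 and Grb2 had fetal-liver-only peaks of 16.4 and 15.4.

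Myc, cell cycle and tumour suppressor genes all had a common peak (16 of 16, beside 50.2% of all genes), with 54 fetal liver and 72 A-MuLV peaks. Myc had 3 and 5, with top common folds of 6.37 and 5.80. Cdkn2a, the Ink4a and Arf locus often lost in A-MuLV lines, had 3 fetal liver and 2 A-MuLV peaks, with a common peak of 8.45 and 6.42 at its promoter and a fetal-liver-only peak of 11.8. Bcl6 had 2 and 9, and Bcl2l1 had common peaks of 20.1 and 16.9. Ccnd1 had 5 and 1, with 4 fetal-liver-only peaks of up to 11.6.

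**Figure D5:**
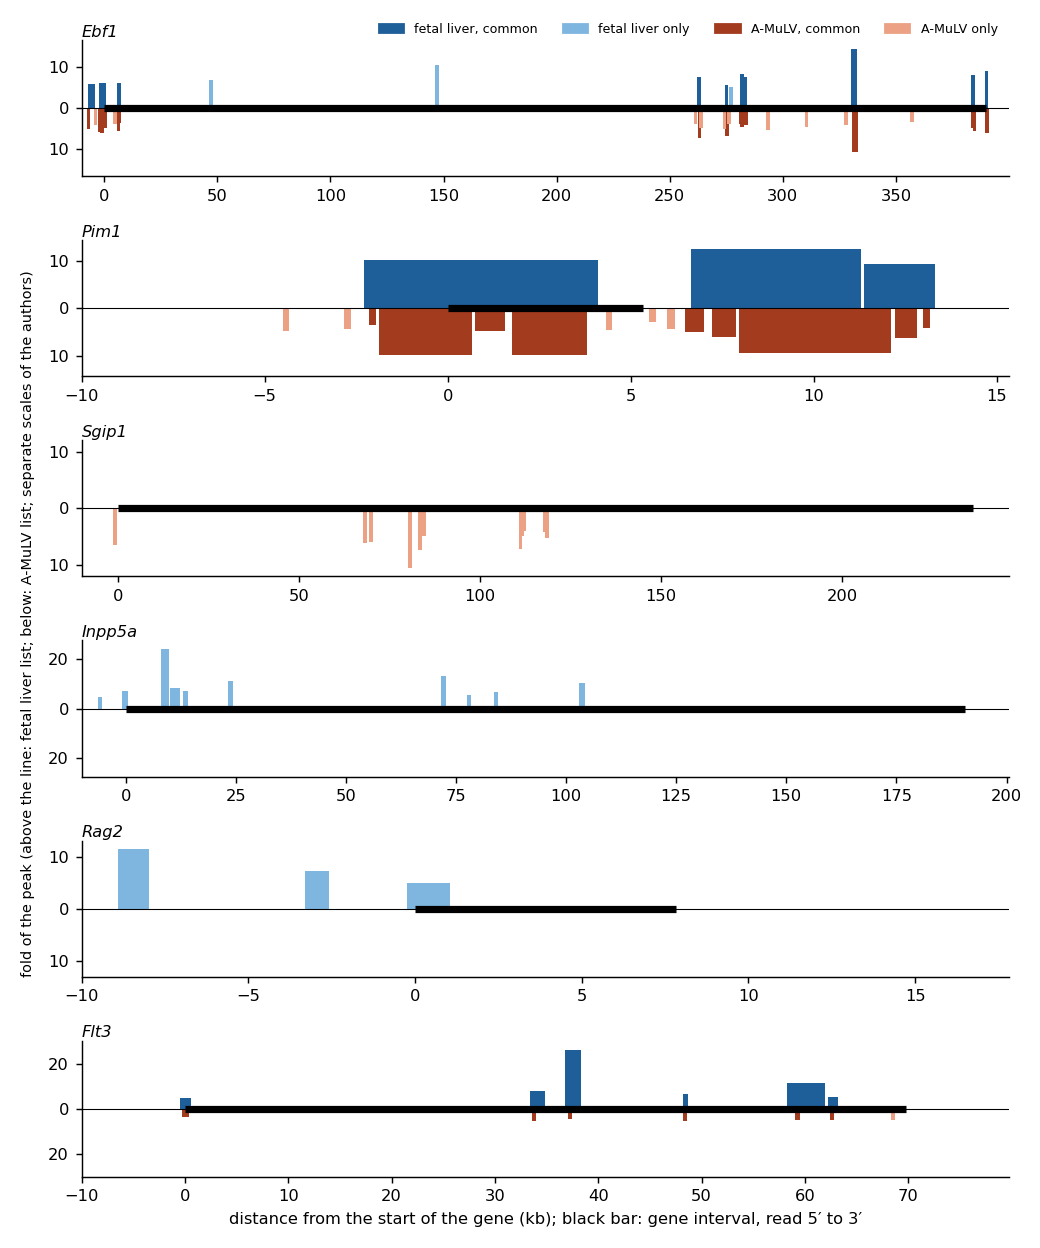
Wild-type Brg1 peaks along 6 genes, in kb from the gene's start, with the fold of each peak above the line for fetal liver and below it for A-MuLV cells; dark bars are common and pale bars particular, and the narrowest bars are widened to be visible. Ebf1 and Pim1 hold more A-MuLV than fetal liver peaks (26 against 13 and 14 against 3), Sgip1 holds A-MuLV peaks only (11), Inpp5a (10) and Rag2 (3) hold fetal liver peaks only, and Flt3 holds 6 and 7.

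Progenitor genes were the list with the largest share of members that had a fetal liver peak and no A-MuLV peak. Of 12 members, 5 (41.7%, against 11.8% of all genes) had a fetal liver peak and no A-MuLV peak: Gata2, Meis1, Hoxa9, Hhex and Tal1. No member had an A-MuLV-only peak, and the list held 28 fetal liver and 12 A-MuLV peaks. With no extension of the gene interval, 2 of the 12 were of this kind. With both lists held to a −log10 q of 10 they were 7 of 12, beside 34.2% of all genes, and at 20 they were 6 of 12, beside 44.8%, so the distance from the background was small at the strictest threshold. Meis1, a homeobox cofactor of stem cells, had 4 fetal liver wt peaks (up to 12.4), 4 with empty vector, 2 with dC, 1 each with dPLD and F-GATA3 and none in A-MuLV cells. Hoxa9 had 1 fetal liver wt peak (6.37), 4 with dC, 1 each with dPLD and F-GATA3, 3 with empty vector and none in A-MuLV Brg1 libraries. Gata2 had 1 fetal liver wt peak (6.73), 1 with dC, 1 with empty vector and none elsewhere. Hhex had 2 in each of the 5 fetal liver libraries, none in A-MuLV wt and 4 in A-MuLV dC cells, and Tal1 likewise had none in A-MuLV wt and 4 in A-MuLV dC. Erg, an ETS factor of stem cells, had a common peak of 25.1 and 19.3 and in all 11 fetal liver and 4 A-MuLV peaks, 9 of the former particular, while A-MuLV dC held 13. Cd34, Mecom and Hlf had no peak in either wt library.

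Among genes of other lineages, no wt peak was found for 3 of 16 T-lineage and 7 of 12 innate lymphoid and NK genes. The same held for 4 of 14 myeloid and 3 of 11 erythroid and megakaryocyte genes, beside 35.8% of all genes. Of these lists only that of innate lymphoid and NK genes was above the share of all genes. T-lineage genes had a common peak in 9 of 16 cases, near the 50.2% of all genes, with 40 fetal liver and 41 A-MuLV peaks, and Notch1 (21.7 in fetal liver) and Il2ra (19.2) led. Cd4, Thy1, Cd3e and Cd28 had fetal liver peaks alone, while Cd8a, Gata3 and Bcl11b had none. Thy1 had 3 in fetal liver wt and 3 in empty-vector cells, 1 in F-GATA3 and none in the remaining Brg1 libraries. Innate lymphoid and NK genes had 15 fetal liver and 6 A-MuLV peaks, and 7 of 12, such as Ncr1 and Eomes, had none.

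Myeloid genes held 25 and 17 peaks, with a common peak at 9 of 14, beside 50.2% of all genes. Itgam (15.5 and 11.2) and Spi1 (14.0 and 11.0), which encodes PU.1, were common, Mpo had a fetal liver peak alone, and Cebpa, Csf1r, Lyz2 and Ly6g had none. Erythroid and megakaryocyte genes held 19 and 19, with Pf4 (17.3) and Hbb-bt (16.1) in fetal liver cells alone and no peak at Gata1 or Hba-a1. Stromal genes, of which OP9 cells could be a source in fetal liver cultures, had 4 fetal liver peaks, 3 at Thy1 and 1 at Col1a1 (6.19), and no A-MuLV peak. Col1a2, Col3a1, Pdgfra, Pdgfrb, Vcam1 and Cxcl12 were among the 9 of 11 without a peak. In the empty-vector library Pdgfrb had 4 peaks. Peaks show where Brg1 was found and not which of these genes were expressed.

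Genes used as reference held Brg1 in both. All 20 BAF, PBAF and ncBAF subunit genes had a common peak (74 and 89 peaks), beside 50.2% of all genes. Smarca4 had 5 fetal liver peaks, all common with a fold of up to 17.3, and 13 A-MuLV peaks of up to 12.0. Smarca2, which encodes the alternative ATPase Brm, had 4 and 5. Arid1b had 21 and 13, 14 of the former particular. Immediate early and stress genes had a common peak in 13 of 15 cases, with Fosl2 (10.8) and Atf3 (9.46) in fetal liver cells alone, and Hspa1a and Hspa1b, near-identical neighbours that share peaks, at 16.0 and 16.6. Ubiquitously expressed genes had a common peak in 12 of 14 cases, and 1.41 A-MuLV peaks per fetal liver peak, beside 1.46 for B-lineage transcription factors and 1.07 for kinases and adaptors, with Hprt in fetal liver and Pgk1 in A-MuLV cells alone; both lie on the X chromosome.

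Some genes held many more fetal liver than A-MuLV peaks. The largest excesses of fetal liver over A-MuLV peaks were at Gse1 (30 against 13), Tmem108 (22 against 5), Nav2 (15 against 0), Snx29 (24 against 10), Med13l (16 against 3), Tenm4 (13 against 0), Ccdc162 (12 against 0), Mgat5 (13 against 1), Ttc7b (14 against 2) and Med12l (15 against 4), whose excess of 11 was tied with others such as Nfia, Rap1gap2 and Tead1. Most of these genes are long, and Tenm4, a teneurin gene, spans 739850 bp. Nav2 held 7 peaks with dC, 8 with dPLD, 15 with F-GATA3, 6 with empty vector and 1 in A-MuLV dC. Inpp5a, which encodes an inositol phosphatase and was named after its values were seen, held 10 and 0, with 12, 12, 10 and 7 in the other fetal liver lists and 1 in A-MuLV dC, and the 1 Mb window around it (chr7:139000001-140000000) held 22 fetal liver and no A-MuLV peaks. In all, 2590 genes had fetal liver peaks alone and 371 of these had 3 or more, whereas 299 had A-MuLV peaks alone and 17 of these had 3 or more.

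Other genes held more A-MuLV than fetal liver peaks. The largest excesses were at Msi2 (34 A-MuLV against 16 fetal liver peaks), Cyth1 (30 against 13), Vmp1 (25 against 9), Ccnd3, Ebf1, Myl10 (17 against 4), Rad51b (28 against 15), Galnt14 (16 against 4), Grk2 (15 against 3) and Adgrg3 (15 against 4), whose excess was tied with others such as Elk4, Pim1, Sgip1, Syndig1l and Tedc1. Msi2, an RNA-binding protein gene of stem cells and leukaemia, held 22 peaks in A-MuLV dC, 6 with empty vector and 12 to 14 in the other fetal liver libraries. Both A-MuLV libraries were thus above all 5 fetal liver libraries there, but their lists also have narrower peaks and lower thresholds. Galnt14 was unlike Msi2, with 2 peaks in A-MuLV dC and 2 to 6 in the other fetal liver libraries, so its excess stood in 1 A-MuLV library. The same held for Sgip1, the gene of an endocytic adaptor, named after its values were seen. Sgip1 had 11 A-MuLV wt peaks, none in fetal liver wt, dC, dPLD or F-GATA3 cells, 4 with empty vector and 1 in A-MuLV dC. Gpr63, named after its values were seen, had 7 A-MuLV peaks, no peak in any fetal liver library and 4 in A-MuLV dC. Narrow peaks that split 1 broad region add to such counts. Common A-MuLV and common fetal liver peaks numbered 13 and 3 at Grk2, 23 and 13 at Ccnd3, and 20 and 12 at Cyth1. At Galnt14 they numbered 3 and 3, and 13 of its A-MuLV peaks were particular. How much of each excess comes from such splitting was not tested.

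By chromosome, the X stood lowest in A-MuLV peaks per fetal liver peak. It held 472 fetal liver and 210 A-MuLV peaks, a ratio of 0.445 A-MuLV peaks per fetal liver peak, against 0.719 to 1.05 on the 19 autosomes. Of its fetal liver peaks 29.9% were common, against 44.6% to 58.3% on the autosomes. With both lists held to a −log10 q of 10 the X held 472 and 29 peaks, a ratio of 0.0614 against 0.204 to 0.382 on the autosomes, and with equal numbers of peaks the ratio was 0.585 against 0.866 to 1.25. The Y held 10 and 17. Sex and chromosome number of the cells are not given in the labels used here. On chromosome 9, 48 A-MuLV peaks with folds of 1.36 to 1.92 lay close to the start of the assembled sequence, where A-MuLV dC held 39 and fetal liver wt none, and they make up 48 of the 75 A-MuLV-only peaks with a fold under 2. Leaving them out put the common share of A-MuLV peaks at 82.0%.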

How the data were processed

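Brg1 was profiled by ChIP-seq in 1 library of each kind of cell, and 9 peak lists, from 14 samples of which 5 are inputs, were read. The authors worked with MACS2 2.1.2, Bowtie2 2.3.3.1, deepTools 3.3.1, SAMtools 1.9 and the build GRCm38, per the submitters' processing notes. Not given in the sources used here are the threshold, duplicate handling and input for each list. Each deposited list gives, as the authors made it, a display score, the fold enrichment (a ratio), −log10 p and −log10 q of each peak. Peaks off the assembled chromosomes were left out, 7 in the fetal liver and 63 in the A-MuLV list.

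Overlaps of at least 1 bp were counted in Python 3.11.15 with pandas 2.3.3 and numpy 2.4.6, with a routine tested on simulated intervals. Intervals on shares are exact (Clopper-Pearson, 95%, SciPy 1.17.1). Genes are 21883 protein-coding genes of RefSeq, extended by 10 kb, and promoters 32851 RefSeq windows of GRCm38.p6, which 17491 of those genes have. The 17 gene lists hold 230 distinct genes, all matched. The members and lists were chosen with earlier results of these data known. Genes named are up to 4 per list and class with the highest fold, the 10 highest peaks of each class, the 10 largest excesses each way, and Ebf1, Smarca4, Pax5, Kit, Flt3, Il7r, Myc, Cdkn2a and Abl1; list members named beyond these were chosen after their values were seen. Values of some genes that meet this rule are not reported here. Alternatives were stricter or equal-sized lists, other overlap rules and other gene intervals.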

Additional observations from a re-analysis of the deposited data

How the results depend on the processing

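No paired analysis was possible because each group has 1 library. Depth is unknown, and the lists differ in threshold and width, so shares are given under each rule, in the order fetal liver then A-MuLV, common then particular. The causes of the differences were not tested. With both lists at a −log10 q of at least 10, 21.2% of fetal liver and 91.8% of A-MuLV peaks were common. Empty-vector Brg1 was called at 51.3% and 32.0% of fetal liver peaks, EBF1 wt at 32.9% and 63.1% of A-MuLV peaks, and promoters held 46.2%, 21.3%, 40.9% and 5.41%. A fetal liver peak alone was found for 34.2% of genes and an A-MuLV peak alone for 0.329%, with 51 A-MuLV peaks at Igk and 38 at Igh. At 20 the common shares were 7.92% and 83.7%, empty-vector shares 48.5% and 46.2%, EBF1 shares 62.4% and 74.7%, promoter shares 29.7%, 32.7%, 24.7% and 10.7%, and gene shares 44.8% and 0.297%, with 24 A-MuLV peaks at Igk, 66 fetal liver peaks at Igh and 11 A-MuLV peaks there. With equal numbers of peaks the common shares were 55.8% and 77.7%, empty-vector shares 46.6% and 31.6%, promoter shares 44.1%, 11.2% and, for A-MuLV-only peaks, 7.48%, and gene shares 9.70% and 2.61%. With an overlap of 50% of the shorter peak, 80.3% of A-MuLV peaks were common and EBF1 was called at 18.9% of the others. With summits within 200 bp the common shares were 38.3% and 46.1%, empty-vector shares 33.3% and 25.3%, EBF1 shares 21.5% and 11.1%, and promoter shares 40.2%, 18.2%, 34.7% and 18.1%. With 200 bp on each side of summits they were 46.1% and 58.3%, 39.1% and 26.5%, 20.1% and 14.2%, and 35.9%, 9.82%, 34.1% and 10.5%. With genes extended by 50 kb the gene shares were 9.86% and 0.923%, and with no extension 1.55% had an A-MuLV peak alone and 2 progenitor genes a fetal liver peak alone. The X chromosome ratios and the count without the start of chromosome 9 were added after seeing the data. Apart from the X chromosome ratios, 64 values moved beyond their interval or 1.5-fold, and 49 did not.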

Other observations

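At Igk the altered EBF1 libraries differed from the wt libraries and from each other. Against 141 peaks in fetal liver wt cells, the locus held 28 with dC, 69 with dPLD, 108 with F-GATA3 and 2 with empty vector, and against 195 in A-MuLV wt cells it held 17 in A-MuLV dC cells. EBF1 itself had 62 peaks there with wt and 15 with dC. Igh was unlike this, with 129 peaks in fetal liver dC, 186 in A-MuLV dC and 53 in empty-vector cells, and with 13 EBF1 wt peaks.

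In windows of 1 Mb, 1814 of 2087 windows with a peak held peaks of both kinds of cell. A-MuLV peaks exceeded fetal liver peaks by 105 to 52 in the window of Pim1 and Cdkn1a (chr17:29000001-30000000), and by 39 to 7 in that of Kynu and Arhgap15 (chr2:43000001-44000000). Fetal liver peaks exceeded A-MuLV peaks by 41 to 6 in the window of Sdk2 and the Cd300 family of myeloid receptors (chr11:114000001-115000000), and by 37 to 6 in that of Tlr1, Tlr6 and Klf3 (chr5:64000001-65000000). These windows were chosen after their counts were seen.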
